A study of Nicotiana tabacum with 2 samples.

Results

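Accessible regions of tobacco callus that lay in the centre of each chromosome are described here. The centre is the middle 20% of a chromosome's length, and a region was a member when its summit, the point of highest pileup, fell between 0.4 and 0.6 of that length. The length of a chromosome was taken as the end of its last region in either list. On the 19 chromosomes of the Niben261 assembly the rule gave 6000 members at 0.5 mg/L NAA, 18.9% of the 31830 regions of that list, and 7382 members at 0.1 mg/L NAA, 18.7% of 39523 regions. Together these were 13382 of 71353 regions. Membership used position only, so density, width, spacing, strength and sharing were not part of the choice.

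The study asked whether a higher concentration of the synthetic auxin naphthaleneacetic acid (NAA) alters chromatin accessibility in tobacco explants in tissue culture. Nuclei came from pooled explants on medium with 0.5 mg/L NAA in one library (high NAA) and 0.1 mg/L NAA in the other (low NAA), and no genotype difference between them is named. The treatment labels state 3 weeks on the medium for high NAA and 2 weeks for low NAA, whereas the methods of the study give a single time, so concentration and culture time cannot be told apart. The labels name Nicotiana tabacum as the organism, the sequences are those of an assembly of N. benthamiana, and the labels mention sonication of fixed chromatin beside the Tn5 step. With 1 library per concentration, no difference could be set against a spread between samples. All intervals are 95% intervals that cover counting error only, and no p-values are given.

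ATAC-seq uses the transposase Tn5, which inserts adapters where DNA is not covered by nucleosomes or other proteins, so that reads pile up over promoters, enhancers and other open elements. In many plant genomes genes and open elements thin out towards the pericentromere, where repeats and compact heterochromatin prevail. The centre of a chromosome's length is its pericentromere only where both arms are of like length. Centromere positions and gene models of Niben261 were not used here, so the centre is a stretch of length and not a chromatin class.

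Most members rested on few fragments. The median member had a summit pileup of 7 fragments over a local background of 0.389 in high NAA, and of 10 fragments over 1.17 in low NAA. The most common background was 0.172 in high NAA and 0.747 in low NAA. By this measure the low-NAA library appeared the deeper one, but depth was not separated from fragment length, which peak lists do not hold. The narrowest region was 150 bp in high NAA and 207 bp in low NAA. Differences of number and width between the lists run together with these differences, and their part in them was not tested. Comparisons of the centre with the rest of the chromosomes stay within 1 list and 1 depth.

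Accessible regions were slightly sparser in the centre than over the remaining chromosome length, and no sparser than in the 20% of length on either side. The central 587 Mb held 10.2 regions per Mb in high NAA, against 10.7 per Mb in the remaining 2350 Mb, a ratio of 0.950 (0.924 to 0.978). In low NAA it held 12.6 per Mb, against 13.3 per Mb in the rest, a ratio of 0.948 (0.924 to 0.972). Set against the outermost 10% at each end of the chromosomes, the ratios were 0.862 (0.832 to 0.892) in high NAA and 0.855 (0.829 to 0.882) in low NAA. Set against the 20% of length on either side, a comparison chosen after seeing the data, they were 1.007 (0.976 to 1.038) and 1.000 (0.972 to 1.029). The lower density against the rest thus came from the comparison with denser chromosome ends.

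**Figure D1:**
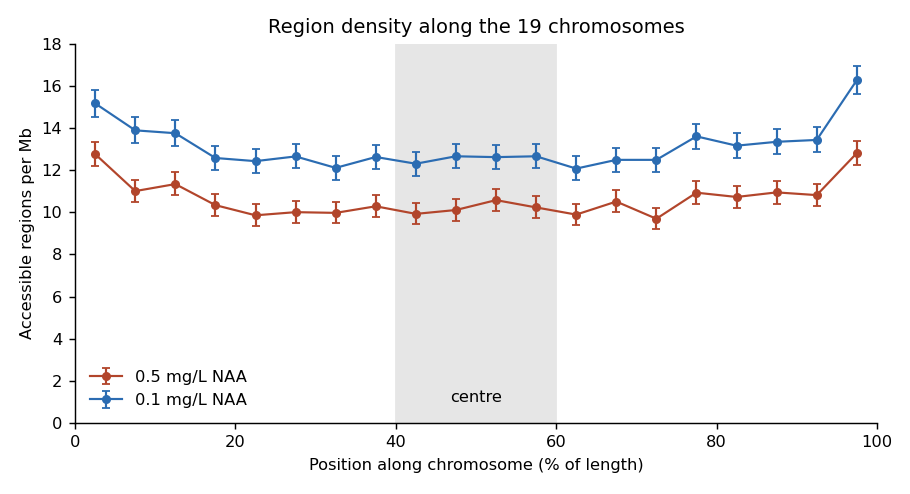
Accessible regions per Mb (vertical axis) in 20 bins of 5% of chromosome length (horizontal axis), summed over 19 chromosomes, with exact 95% intervals. The 4 central bins sit between 9.93 and 10.6 per Mb in high NAA and between 12.3 and 12.7 in low NAA, level with the bins around them, while the last bin reaches 12.8 and 16.3.

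Summed over chromosomes, the density of the centre varied little between its bins of 5%, but more between the 2% of length just inside each bound, given below. In high NAA its 4 bins of 5% held 1458, 1485, 1554 and 1503 regions in order along the chromosome, and in low NAA they held 1808, 1860, 1854 and 1860. No common step marked its bounds. In the 2% of length just inside the upper bound the density was 11.5 per Mb in high NAA and 13.8 in low NAA, against 10.4 and 12.4 in the 2% just outside it. At the lower bound the order was the other way round, with 9.79 and 12.1 per Mb inside, against 11.0 and 13.2 outside.

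Single chromosomes differed much more than this sum. The centre was sparser than the rest of its chromosome on 12 of 19 chromosomes in high NAA and on 13 in low NAA, and the interval of the ratio stayed below 1 on 5 and above 1 on 2 of them in each list. Both lists put the centre below the rest on 11 chromosomes and above it on 5, and they disagreed on 3. The chromosome ratios had a Spearman rho of 0.67 between the lists over these 19 chromosomes, as a description of points that share chromosome and assembly. Central densities of different chromosomes had an SD of 1.41 per Mb in high NAA and 1.50 in low NAA, and showed little relation to the density of the rest of the same chromosome, with a rho of 0.19 in high NAA and 0.28 in low NAA.

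Chromosome 8 had the lowest ratio in both lists. Its centre held 9.25 regions per Mb in high NAA, against 13.3 in the rest, a ratio of 0.694 (0.605 to 0.793). In low NAA it held 10.1, against 15.8 in the rest, a ratio of 0.642 (0.564 to 0.729), and this was the lowest central density of that list. The low centre was not a dip between 2 dense arms. In its 5 sections of 20% in order along the length, chromosome 8 held 20.8, 15.3, 9.25, 8.53 and 8.63 regions per Mb in high NAA and 22.2, 18.5, 10.1, 10.4 and 12.0 in low NAA, so the centre opened a sparse stretch that ran to the far end. Without chromosome 8 the ratio over the others was 0.966 in both high and low NAA.

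Chromosome 19 came closest to a sparse middle. It had the lowest central density in high NAA, 8.27 per Mb against 10.8 in the rest, with a ratio of 0.765 (0.665 to 0.878), and in low NAA it held 11.3 per Mb, against 13.1 in the rest, with a ratio of 0.868 (0.769 to 0.977). Against the 20% of length on either side the ratios were 0.743 (0.639 to 0.862) and 0.839 (0.737 to 0.954), and the centre was the sparsest of its 5 sections of 20% in both lists. No other chromosome had its centre as the sparsest section in both lists. Chromosome 1 was also below either side, at 0.843 (0.739 to 0.961) in high NAA and 0.883 (0.786 to 0.989) in low NAA. Over all chromosomes the interval of this ratio stayed below 1 on 4 and above 1 on 3 in high NAA. In low NAA it stayed below 1 on 4 and above 1 on 5.

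Chromosome 11 had the highest ratio in high NAA, with 12.7 regions per Mb in the centre against 9.77 in the rest, a ratio of 1.300 (1.152 to 1.464). In low NAA it held 13.5, against 11.8 in the rest, a ratio of 1.138 (1.014 to 1.275). Its sections of 20% held 7.48, 7.69, 12.7, 10.5 and 13.4 per Mb in high NAA, so the first 2 sections were sparse and the centre began the denser part. Chromosome 5 had the highest ratio in low NAA, with 15.2 per Mb in the centre against 13.2 in the rest, a ratio of 1.148 (1.028 to 1.281), and in high NAA it held 11.5, against 10.3, a ratio of 1.116 (0.983 to 1.265). Chromosome 6 had the highest central density in both lists, 13.5 per Mb in high NAA and 16.0 in low NAA. The rest of chromosome 6 was nearly as dense, with 12.7 and 15.6 per Mb, and the ratios of 1.063 and 1.024 had intervals that included 1.

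The remaining centres filled the range between these. Chromosome 13 held 11.6 regions per Mb in high NAA and 13.1 in low NAA, and chromosome 14 held 10.9 and 13.9, each above the rest of its chromosome in both lists. Chromosome 9 held 11.0 per Mb in high NAA and 14.3 in low NAA, chromosome 16 held 10.5 and 13.1, and chromosome 10 held 10.5 and 12.7. Chromosome 7 held 10.1 per Mb in high NAA and 12.6 in low NAA, against 12.9 and 14.8 in its rest, and its ratios of 0.783 (0.691 to 0.886) and 0.848 (0.757 to 0.947) were the only ones beside those of chromosomes 8 and 19 with intervals below 1 in both lists. Chromosome 15 held 9.99 per Mb in high NAA and 12.8 in low NAA, chromosome 3 held 9.40 and 12.1, and chromosome 17 held 9.35 and 11.9. Chromosome 1 held 8.81 per Mb in high NAA and 11.6 in low NAA, and chromosome 4 held 8.43 and 11.0. The 9 chromosomes given here from chromosome 9 onward had fewer regions per Mb in the centre than in the rest in both lists. Chromosome 12 held 10.1 per Mb in high NAA and 11.7 in low NAA, and chromosome 18 held 8.66 and 12.1. Their ratios to the rest were near 1 with opposite signs, at 1.037 (0.914 to 1.174) and 0.917 (0.798 to 1.051) in high NAA and at 0.983 (0.875 to 1.102) and 1.017 (0.903 to 1.142) in low NAA.

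**Figure D2:**
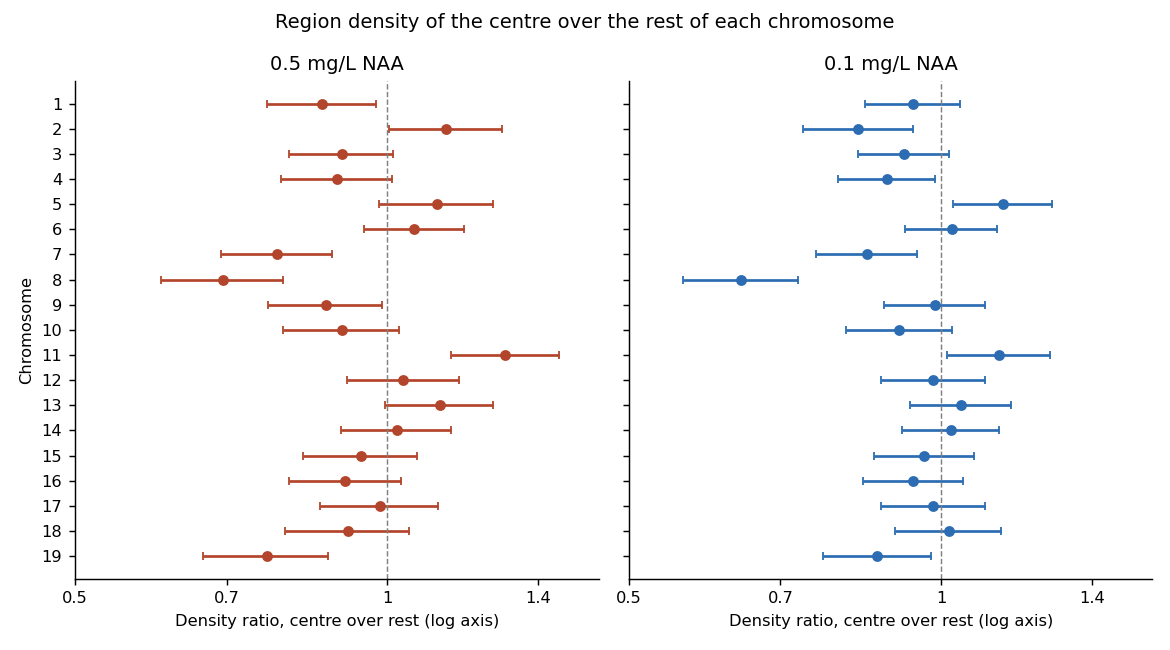
Density of regions in the centre over that in the rest of the same chromosome (horizontal log axis) for each of 19 chromosomes (vertical axis), at 0.5 mg/L NAA (left) and 0.1 mg/L NAA (right), with exact 95% intervals. Chromosome 8 lies lowest in both panels at 0.694 and 0.642, and chromosome 2 lies at 1.139 on the left and 0.832 on the right.

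The centre had fewer regions in high NAA than in low NAA, in the same proportion as the rest of the chromosomes. The ratio was 0.813 (0.785 to 0.841) in the centre, and 0.810 (0.797 to 0.824) in the rest. On 18 of 19 chromosomes the centre held fewer regions in high NAA, with a median chromosome ratio of 0.784. The direction depended on the threshold: among regions with a q-value under 0.001 the ratio was 0.980, and among those under 1e-05 it was 1.240, so the high-NAA list held more of the strong members and the low-NAA list more of the weak ones.

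Chromosome 2 was the exception among the 19. Its centre held 325 regions in high NAA and 324 in low NAA, a ratio of 1.003 (0.857 to 1.174), whereas the rest of chromosome 2 held 1141 and 1557, a ratio of 0.733 (0.678 to 0.791) and the lowest among the remaining parts of all chromosomes. The centre was thus the densest of the 5 sections of 20% of chromosome 2 in high NAA, with 10.7 per Mb, and the sparsest in low NAA, also with 10.7 per Mb. Against the rest of the chromosome the ratio was 1.139 (1.004 to 1.290) in high NAA and 0.832 (0.736 to 0.939) in low NAA. With q-values under 0.001 these became 1.070 (0.924 to 1.235) and 0.807 (0.690 to 0.940), so only the low-NAA interval stayed apart from 1. With q-values under 1e-05 they became 1.111 (0.927 to 1.326) and 0.816 (0.652 to 1.014), both with intervals that included 1. Among regions at least 207 bp wide the high-NAA ratio was 1.075 (0.911 to 1.264). The directions stayed the same in each case.

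In high NAA the members of chromosome 2 were also the least shared of all centres. Of its 325 central regions in high NAA, 121 overlapped the low-NAA list by at least 1 bp, or 37.2% (32.0 to 42.7), against 52.0% (49.0 to 54.9) in the rest of chromosome 2 and 50.6% (49.3 to 51.9) in the centres of the other 18 chromosomes. Over the whole list of the high-NAA library 50.4% of regions overlapped, and over that of the low-NAA library 40.3%. The number of shared regions per Mb was 3.99 in the centre of chromosome 2 and 5.16 in the other centres, while that of unshared regions was 6.73 and 5.03. From the low-NAA side 120 of 324 central regions were shared, or 37.0% (31.8 to 42.5), against 38.0% in the rest of that chromosome. The 204 unshared members in high NAA were ordinary in strength, with a median width of 205 bp, a median fold of 5.02 over background and a median pileup of 6, against 203 bp, 4.96 and 6 for the 2802 unshared members of the other chromosomes. Their median background of 0.352 was also close to the 0.330 of the others. They were spread over the centre, with 35, 48, 61 and 60 in its 4 bins of 5%.

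**Figure D3:**
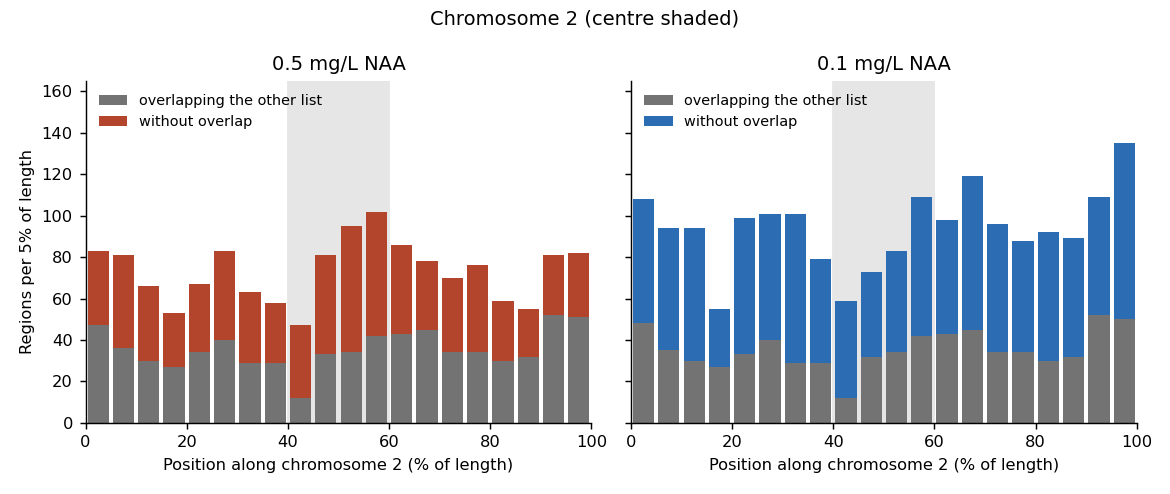
Regions per 5% of the length of chromosome 2 (vertical axis) along its length (horizontal axis) at 0.5 mg/L NAA (left) and 0.1 mg/L NAA (right), with regions that overlap the other list in grey and those without overlap in colour. In the shaded centre the bins hold 47, 81, 95 and 102 regions on the left and 59, 73, 83 and 109 on the right.

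Members were unevenly spread when counted in windows of 1 Mb, about as much as regions in most other sections of the same chromosomes. The 576 central windows held a median of 10 regions in high NAA, with a range of 1 to 32, and a median of 12 in low NAA, with a range of 0 to 36. The variance over the mean, which is 1 for points placed at random, was 1.88 in the central windows in high NAA, against 2.01 to 2.95 in the other 4 sections of 20%, and 1.69 in low NAA, against 1.89 to 2.72. These values include the differences in mean density between chromosomes. With the variance taken within chromosomes, an analysis added after seeing the data, they were 1.75 in the centre in high NAA, against 1.61 to 2.06, and 1.58 in low NAA, against 1.58 to 1.98, so the centre was not particular in this. Counts in high NAA were below those in low NAA in 398 windows, above them in 115 and equal in 63, and of the 30 windows on chromosome 2 they were below in 15 and above in 10.

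The 3 densest windows lay on chromosomes 11 and 16. The window on chromosome 11 at 63452579 to 64452578 held 32 regions in high NAA, of which 18 were shared, and 28 in low NAA. On chromosome 16 at 87309419 to 88309418 there were 20 regions in high NAA, of which 18 were shared, and 36 in low NAA, the highest central count of that list. These 20 regions were wide for their list, with a median of 339.5 bp. A second window on chromosome 11, at 74452579 to 75452578, held 29 regions in high NAA and 26 in low NAA. Both windows of chromosome 11 had more regions in high NAA, against the general order. All coordinates are those of Niben261, counted from 1.

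The longest stretch without a region of either list was also on chromosome 2. It ran over 999.6 kb at 64623732 to 65623369, from 42.6% to 43.3% of the chromosome. A single region of 269 bp, present only in high NAA at 65623370 to 65623638 with a fold of 4.13 and a pileup of 4, separated it from a further empty stretch of 534.7 kb that ended at 66158371. In the low-NAA list alone nothing was called over the whole 1535 kb. This near-empty block lay in the first of the 4 central bins of chromosome 2, the one with 47 regions in high NAA and 59 in low NAA.

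The second stretch was on chromosome 2 as well, 685.3 kb at 68030472 to 68715734, and the third was on chromosome 18, 684.7 kb at 72897298 to 73581984. Chromosome 1 had 2 stretches of 630.6 and 540.2 kb that were only 100.8 kb apart, with 4 regions of each list between them. A stretch of 496.6 kb on chromosome 11 began at 64569670, just past the densest window. Stretches of at least 200 kb numbered 430 and made up 20.6% of the central length, against 18.2% to 23.1% in the other 4 sections of 20%, so the centre was not richer in them. Their share by chromosome ran between 11.1% on chromosome 5 and 31.1% on chromosome 19, the chromosome with the sparsest centre in high NAA.

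In each chromosome the longest central stretch was between 407.0 and 999.6 kb, with a median of 474.8 kb. It was the longest of the whole chromosome on 3 of 19, namely chromosomes 2, 8 and 18. On chromosome 8 it measured 522.4 kb, against 411.7 kb in the other sections, and on chromosome 18 it measured 684.7 kb, against 549.5 kb. The longest stretches of the assembly lay outside the centre, up to 2224 kb on chromosome 13. Taken from the high-NAA list alone, the longest central stretch was 1138 kb on chromosome 4 at 91168048 to 92305861, and it held 5 regions of the low-NAA list. Assembly gaps and the uniqueness of the sequence were not analysed here, so a stretch without regions is only a stretch without calls.

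**Figure D4:**
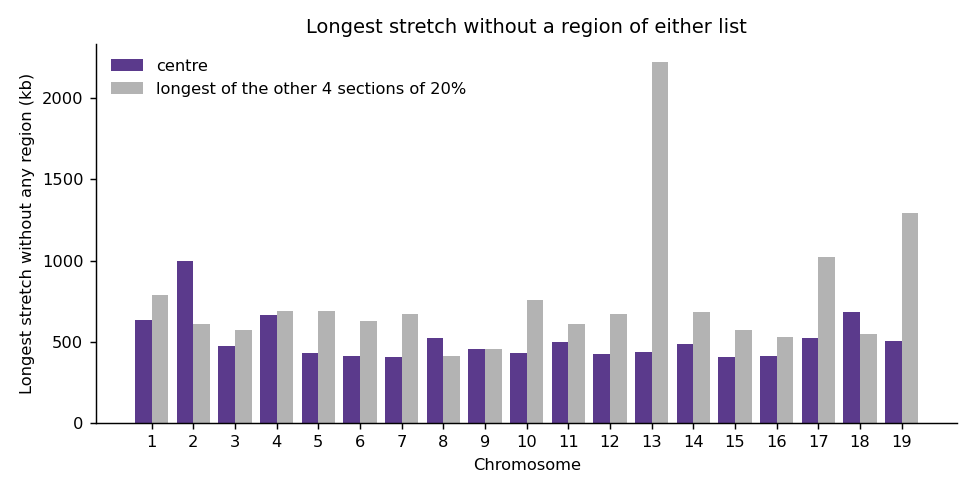
Longest stretch without a region of either list (vertical axis, kb, from 0) in the centre and in the longest of the other 4 sections of 20% for each chromosome (horizontal axis). The central bar is the taller on chromosomes 2, 8 and 18 and reaches 999.6 kb on chromosome 2, while the tallest bar outside the centre is 2224 kb on chromosome 13.

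Width did not set the central regions apart. The median was 231 bp (229 to 234) in high NAA, against 232 bp (231 to 234) in the rest, and the quartiles of the members were 184 and 309 bp. In low NAA it was 318 bp (315 to 322), against 317 bp (315 to 318). Chromosome medians ran between 222.5 and 248 bp in high NAA and between 308 and 329 bp in low NAA, so the ranges of the 2 lists did not overlap. Members narrower than any region of the low-NAA list made up 38.0% of the high-NAA members, against 37.7% in the rest. In the widest class, 19 of 6000 members in high NAA were at least 800 bp wide, or 0.317% (0.191 to 0.494), against 46 of 25253, or 0.182% (0.133 to 0.243) in the rest, and these intervals overlap. In low NAA the shares were 1.84% and 1.91%. The widest members measured 1293 bp on chromosome 17 in high NAA and 1525 bp on chromosome 3 in low NAA, and both were shared.

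Open sequence per Mb followed from number and width together. The members covered 2.70 kb per Mb in high NAA, against 2.85 in the rest, and 4.54 kb per Mb in low NAA, against 4.79. Strength was alike inside and outside. The median fold was 5.84 in high NAA, against 5.88 in the rest, and 4.72 in low NAA, against 4.66. The share of members whose background was at the most common level of their library was 6.49% in high NAA, against 6.71% in the rest, and 18.3% in low NAA, against 17.7%.

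Spacing between neighbouring summits of 1 list was wider in the centre than over the pooled rest, but close to that on either side. The median was 58404 bp (56306 to 60961) in high NAA, against 53252 bp (51946 to 54427) in the rest, and 47870 bp (45888 to 49446) in low NAA, against 44638 bp (43837 to 45488). In the 20% of length before and after the centre the medians were 58631 bp (55210 to 60972) and 55178.5 bp (52089 to 57877) in high NAA, and 46795.5 bp (44919 to 48731) and 46910.5 bp (44910 to 48871) in low NAA, all with intervals that overlap that of the centre. The first and last 20% had the shorter medians, 51412 and 49724 bp in high NAA and 43684.5 and 41909 bp in low NAA. Against the pooled rest, distances over 100 kb made up 33.6% of the central ones in high NAA, against 31.4%, and 27.7% in low NAA, against 25.3%. Close neighbours were somewhat less common, with 14.4% of distances under 10 kb in high NAA, against 15.7%, and 14.0% in low NAA, against 15.3%. Median spacing by chromosome ran between 38260 bp on chromosome 11 and 71028 bp on chromosome 19 in high NAA, and between 37326 bp on chromosome 6 and 58724.5 bp on chromosome 8 in low NAA.

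Sharing between the lists differed by less than counting error between the centre and the rest. Of the 6000 members in high NAA, 2994 overlapped a region of the low-NAA list, or 49.9% (48.6 to 51.2), against 50.4% (49.7 to 51.0) in the rest. Of the 7382 members in low NAA, 2968 overlapped, or 40.2% (39.1 to 41.3), against 40.5% (39.9 to 41.0). Both shares are near those over the whole lists given above. By chromosome they ran between 37.2% on chromosome 2 and 55.5% on chromosome 7 in high NAA, and between 34.2% on chromosome 18 and 47.5% on chromosome 11 in low NAA. In the rest of the chromosomes these ranges were 48.4% to 52.5% and 37.4% to 43.1%. Each centre holds fewer regions than the rest of its chromosome, and the part of that in the wider central range was not tested.

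Strong members were shared far more often than weak ones. In the weakest quintile of −log10 q-values of each list 21.0% of central members were shared in high NAA and 8.10% in low NAA, and in the strongest quintile 80.3% and 82.7%. In the rest the weakest quintiles had 20.4% and 7.72%, and the strongest reached 79.8% and 85.2%. Shared members in high NAA had a median width of 268 bp, a fold of 6.97 and a pileup of 9, against 203 bp, 4.96 and 6 for unshared ones. Shared members in low NAA had 364 bp, a fold of 5.72 and a pileup of 14, against 295 bp, 4.31 and 8. The rest was close to this. Its shared regions had 269 bp, 7.01 and 9 in high NAA, against 205 bp, 4.99 and 6 for unshared ones. In low NAA they had 368 bp, 5.71 and 14, against 291 bp, 4.30 and 8. Members in high NAA that were narrower than the narrowest low-NAA region were shared in 31.8% of cases, against 32.4% in the rest. The wider ones were shared in 61.0% of cases, against 61.2% in the rest.

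**Figure D5:**
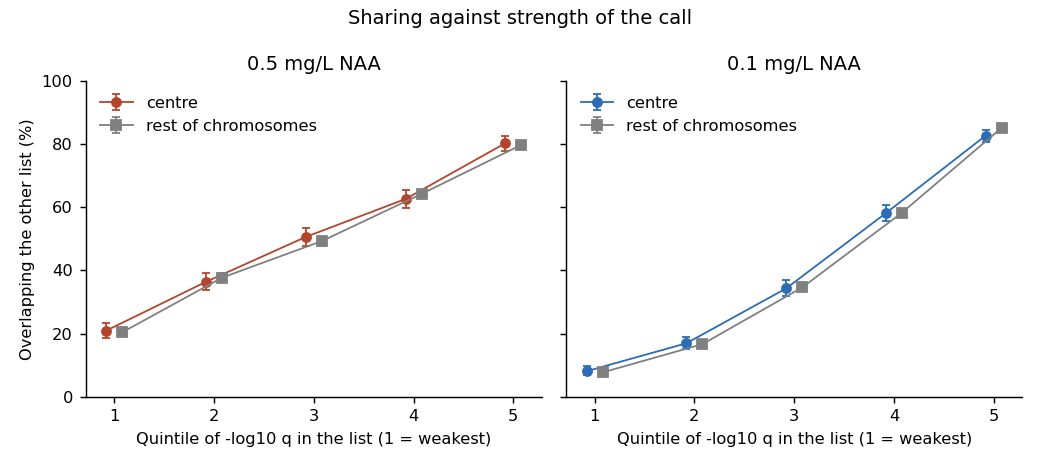
Percent of regions that overlap the other list by at least 1 bp (vertical axis) in quintiles of −log10 q-value within each list (horizontal axis, 1 is weakest), for the centre and the rest, at 0.5 mg/L NAA (left) and 0.1 mg/L NAA (right), with exact 95% intervals. Central members go up with strength to 80.3% on the left and 82.7% on the right, close to the rest throughout.

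In high NAA 67.2% (65.5 to 68.9) of unshared members were over 10 kb from any low-NAA region, against 64.6% (63.8 to 65.5) in the rest. Within 1 kb were 8.72%, against 9.55% in the rest. In low NAA 75.6% (74.3 to 76.8) were over 10 kb from any high-NAA region, against 73.6% (73.0 to 74.2). A distance of 10 kb is short beside the median central spacing of 47870 bp in low NAA and 58404 bp in high NAA. The share for points placed at random was not computed, so these values do not show that unshared members were set apart. The rest was also denser in regions, and the part of density in these differences was not tested. Where a member had a single partner, the 2 lists placed it closely. Over 2930 such pairs the summits were a median of 55 bp (52 to 57) apart, against 57 bp (56 to 58) in the rest. Of the central pairs 72.8% were within 100 bp, against 71.6% in the rest. The region was narrower in high NAA in 76.4% of the central pairs and also in 76.4% of those in the rest. The median width ratio was 0.780 (0.763 to 0.791), against 0.762 (0.754 to 0.769) in the rest. The folds of the central pairs had a Spearman rho of 0.48, against 0.49 in the rest, as a description over regions, which are not replicates.

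The 2 strongest members of each list were the same regions, placed at nearly the same bases. On chromosome 6 the region at 65028307 to 65028576 had a fold of 45.8 and a pileup of 551 in high NAA, and its partner in low NAA, which began 1 bp later, had a fold of 34.0 and a pileup of 729. On chromosome 16 the region at 85294536 to 85294820 had identical bounds and summit in both lists, with a fold of 48.5 in high NAA and 36.7 in low NAA. The third in low NAA, on chromosome 18 at 67438879 to 67439428, had a fold of 23.9, and its partner in high NAA had 30.4. These summits also had high local backgrounds, between 8.60 and 11.0 in high NAA and between 16.3 and 20.5 in low NAA, far over the member medians.

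The third strongest member in high NAA had no partner. It lay on chromosome 3 at 105610209 to 105610364, was 156 bp wide and had a fold of 52.6 with a pileup of 298, and the nearest low-NAA region was 13765 bp away. The next strongest unshared members in high NAA were on chromosome 11 at 71819554 to 71819729, with a fold of 45.7, and on chromosome 18 at 67442126 to 67442288, with a fold of 17.8 and only 2697 bp from the shared region of that chromosome. All 3 were narrower than 207 bp, the narrowest width in the low-NAA list, and so had a width at which that list holds no region at all. Their local backgrounds of 4.69, 2.37 and 9.59, in the same order, were also far over the high-NAA member median of 0.389. The strongest unshared members in low NAA were weaker by far. They lay on chromosome 19 at 78884458 to 78885021 with a fold of 16.6 and a pileup of 28, on chromosome 3 at 79825204 to 79825436 with 13.4 and 23, and on chromosome 12 at 82511566 to 82511816 with 13.2 and 22. Each was at least 91461 bp from the nearest region in high NAA.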

How the data were processed

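The 2 peak lists, 1 library per NAA concentration, were analysed as deposited. The authors trimmed the reads with Trimmomatic 0.39 (per the labels), aligned them to the Nicotiana benthamiana genome with BWA and called peaks per library with MACS2 2.2.7.1 at a q-value threshold of 0.05. The control, duplicate handling and Tn5 offset are not given in the sources used here. Each deposited line holds positions, a score (the −log10 q-value times 10, cut to a whole number), the fold (ratio of summit pileup to local background, with a pseudocount of 1 on both) and the −log10 p-value and −log10 q-value. Pileup and background were solved from fold and −log10 p-value, which succeeded for at least 99.9% of regions. Read totals are not held in peak lists.

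Regions were placed by summit over chromosome length, and stretches were measured on the union of both lists and cut at 0.4 and 0.6. Shares carry exact Clopper-Pearson intervals, rate ratios conditional exact intervals and medians order-statistic intervals (Python 3.11.15, scipy 1.17.1). The code was tested on simulated data. Named items are the 3 strongest members and the 3 strongest without partner of each list by −log10 q-value, the 3 longest stretches, the 3 densest windows of 1 Mb, and the chromosomes with extreme density or ratio. Further chromosomes, stretches and the detail on chromosome 2 were chosen after their values were seen. Members and lists were chosen with earlier results of these data known. Alternatives were stricter q-values, a common minimum width, other bounds, midpoints, merging, other overlap rules and single lists. Gene features and sequences were not analysed here.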

Additional observations from a re-analysis of the deposited data

Results flagged for a closer look

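On 3 chromosomes the centre was denser than the rest in one list and sparser in the other. On chromosome 2 the ratio of central to remaining density was 1.139 in high NAA and 0.832 in low NAA, so that the 2 ratios differed by a factor of 1.37. On chromosome 12 they were 1.037 and 0.983, a factor of 1.05, and on chromosome 18 they were 0.917 and 1.017, a factor of 0.902. With 1 library per concentration these differences were not tested. Only for chromosome 2 did both intervals lie apart from 1. Its high-NAA interval included 1 under both stricter q-values and under the common minimum width.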

How the results depend on the processing

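Of 70 values recomputed under 14 alternatives, 40 stayed within the interval of the value reported (or, for the longest stretch, equal to it). Of the others 27 moved and 3 changed direction, and the cause was not tested. Some of the 40 could not move. The common minimum width removed no region from the low-NAA list, so the density ratio, width and spacing of that list stayed identical. Merging also left these low-NAA values unchanged. The density ratio was counted as changed in direction only when set against the 20% of length on either side, a comparison chosen after seeing the data. It was then 1.007 (0.976 to 1.038) in high NAA and 1.000 (0.972 to 1.029) in low NAA. Both intervals include 1, so this shows no difference from these sections and not a denser centre. The median of the 19 chromosome ratios in high NAA was 0.917. At q-values under 0.001 and under 1e-05 the ratio of region number was 0.980 and 1.240, which is the third change of direction, and with a common minimum width it was 0.504. At q-values under 0.001 the percent shared was 52.6 in high NAA and 51.1 in low NAA, the median width 242 and 350 bp, and the median spacing 75250 and 75105 bp. At q-values under 1e-05 the percent shared in low NAA was 60.8, the median width 258 bp in high NAA and 379 bp in low NAA, and the median spacing 119065 and 148601 bp. With the common minimum width the percent shared was 61.0 in high NAA and 30.6 in low NAA, and in high NAA the median width was 285 bp and the median spacing 94510 bp. Requiring 50% of a region to overlap gave 46.4% and 29.3% shared, and summits within 100 bp gave 35.9% and 29.2%. The longest stretch was 1535 kb at q-values under 0.001, 1621 kb under 1e-05, 684.7 kb with bounds of 0.45 to 0.55, 1138 kb in the high-NAA list alone and 1535 kb in the low-NAA list alone. Leaving out 1 chromosome at a time gave density ratios of 0.934 to 0.966 in high NAA and 0.938 to 0.966 in low NAA. No paired analysis was possible because there is only 1 library for each concentration. Depth could be judged only from the background level, by which the low-NAA library appeared the deeper one, and not from read totals. Fragment length was not separated from it. Weak members rest on few fragments, and the part of depth in number, width and sharing was not tested.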
